A study of Setaria viridis with 11 samples.

Results

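The 7 transcripts described here encode the subunits of Rubisco, the enzyme that fixes CO2 in the Calvin cycle, and Rubisco activase. They were chosen by identifier and make up 7 of the 40599 transcripts listed for each plant. Si020845m encodes the large subunit, Si023465m, Si023466m, Si023437m and Si023461m encode small subunits, Si026402m encodes an activase and Si027442m an activase with a C-terminal extension. All 7 passed the filter on low counts, which left 18065 transcripts for testing.

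RNA was sequenced from leaves of 6 heat-stressed and 5 control plants of *Setaria viridis*, a C4 grass, all of the wild-type genotype A10. All plants started at day and night temperatures of 28 °C and 20 °C. The heat-stressed plants then spent 2 weeks at day and night temperatures of 42 °C and 32 °C, while the control plants stayed at the first setting, and leaves were taken on day 28. For the control night, the study's text gives a slightly higher temperature in some places. The heat-stressed plants stood in a growth chamber of their own, so heat and chamber cannot be told apart. Each library comes from 1 plant, and midsections of several fully expanded leaves were pooled for it. In whole leaf tissue, fewer cells of a type and less of a transcript per cell cannot be told apart.

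In plants, the large subunit of Rubisco carries the catalytic site and is encoded in the plastid genome. The small subunit is encoded by a family of nuclear genes, is imported into the chloroplast and assembles with the large subunit. Rubisco activase, also nuclear-encoded, is a molecular motor that uses ATP to free the catalytic sites of Rubisco from bound sugar phosphates, and in many species it loses activity at moderately high temperature. Many plants have a longer form of activase with a C-terminal extension. In a C4 leaf, Rubisco is found mainly in the chloroplasts of the bundle sheath, to which the C4 cycle delivers CO2.

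By their *S. italica* locus names, the 4 small subunits lie on chromosome 3. Si023466m (Seita.3G269500) and Si023465m (Seita.3G269600) have consecutive locus numbers, and Si023461m (Seita.3G312000) and Si023437m (Seita.3G312200) form another close pair. The activases Si026402m (Seita.8G251200) and Si027442m (Seita.8G251300) have consecutive locus numbers on chromosome 8. The large subunit (Seita.J020800) was placed on an unassigned scaffold of the *S. italica* genome. Reads that fitted several places were not counted, so counts of near-identical copies within the small subunit and activase families are uncertain. Such reads made up 20.2% to 30.8% of the alignments in the heat-stressed plants, against 15.4%, 59.1%, 16.3%, 15.9% and 34.6% in control plants 1 to 5. Their part in the results was not tested. Values without control plants 2 and 5 were computed for the shares, the ratios, the tested transcripts of the Rubisco bins and the counts of calls. They were not computed for the other results.

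Totals ranged from 34731849 to 47441261 counts in the heat-stressed plants and from 34362084 to 54011056 in the control plants. A single plastid transcript, psbA, which encodes the D1 protein of photosystem II, took 46.1% to 48.5% of the counts in heat-stressed plants, against 61.8% to 69.6% in control plants. Levels are therefore given as CPM (the plant's counts scaled to a common total) with TMM factors, which hold the typical transcript at a like level across plants. With library size as the only scaling, the median transcript moves up by 1.05 on the log2 scale, and values under that scaling are given beside the TMM values. Transcript lengths were not used, so each level is compared between plants and not between transcripts. The leaf markers phosphoenolpyruvate carboxylase (Si005789m), carbonic anhydrase (Si003882m) and NADP-malic enzyme (Si000645m) had counts in every plant.

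The Rubisco and activase transcripts were lower with TMM factors in the heat-stressed plants, with the exception of the extended activase, which was far higher. By edgeR's quasi-likelihood test, with Benjamini-Hochberg adjustment over all tested transcripts at a threshold of 0.05, 6 of the 7 transcripts were lower and 1 was higher. Across all transcripts, 30.9% were lower and 32.2% higher. Without control plants 2 and 5, 5 of the 7 were lower and 1 higher, and the call lost was that of Si023437m. Across all transcripts, 5182 were lower and 5392 higher without these plants. With TMM factors, every heat-stressed plant lay below every control plant for 5 of the 7, which held for 21.4% of all transcripts. Si027442m lay above in every heat-stressed plant, as did 23.5% of all transcripts. The median log2 fold change of the 7 was -0.78, against 0.02 for all transcripts. Under library size only, 1 of the 7 was lower (7.67% of all transcripts) and 3 were higher (73.2% of all transcripts), with a median of 0.26 against 1.07. As a share of all counts, every heat-stressed plant lay above every control plant for the large subunit. The groups overlapped on that scale for Si023461m, Si023466m, Si023465m, Si023437m and Si026402m. How many of all transcripts separate on that scale was not computed.

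**Figure D1:**
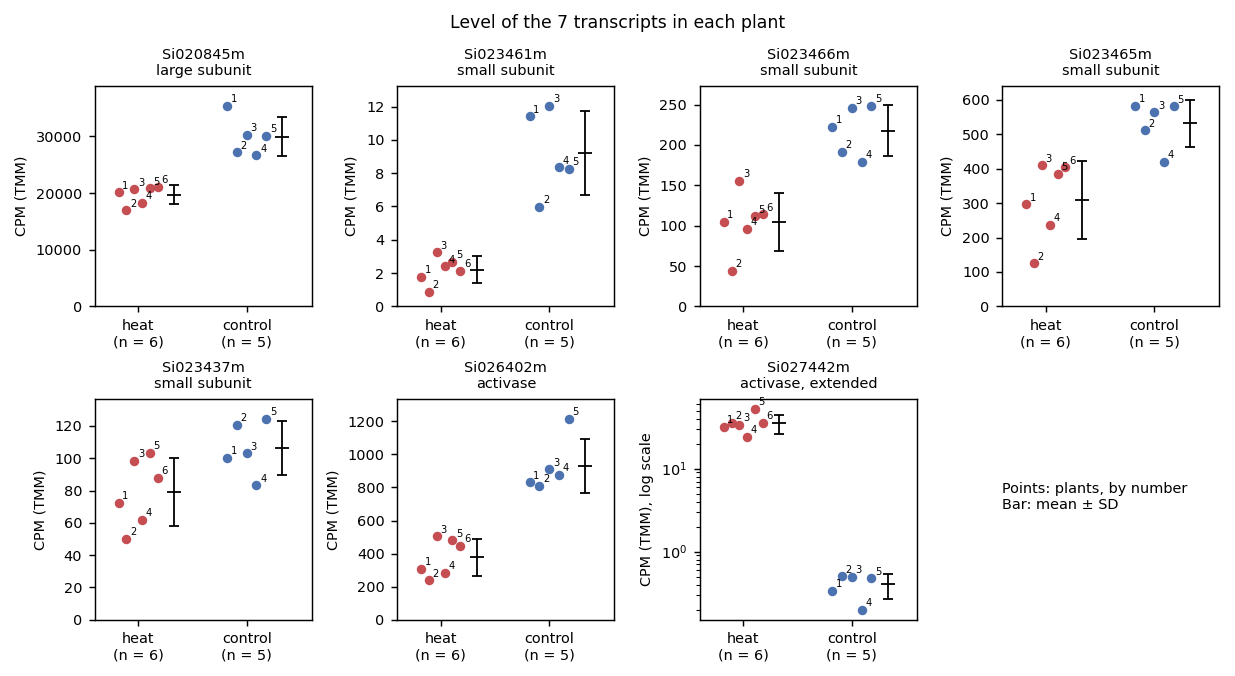
Level of each transcript in CPM with TMM factors (y axis, log scale for Si027442m) in 6 heat-stressed and 5 control plants, each point a plant with its number, and bars the mean ± SD. The groups overlap only for Si023437m, and under library size only the log2 fold changes of the large subunit, Si023465m and Si023437m turn to values above 0.

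The large subunit transcript Si020845m had the smallest spread among plants of the 7. Its lowest, median and highest levels in the heat-stressed plants were 16970, 20415 and 21115 CPM. Control plants 1 to 5 had 35409, 27213, 30292, 26672 and 30133 CPM. With TMM factors, every control plant lay above the highest heat-stressed plant, and control plant 1 was the highest of all. As a share of all counts the order was reversed, with 2.54% to 2.86% under heat and 1.57% to 2.40% in control plants. As a share of the counts outside psbA the groups overlapped, with 4.75% to 5.49% under heat and 5.03% to 6.85% in control plants.

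The mean levels were 19685 ± 1662 CPM in the heat-stressed plants and 29944 ± 3471 CPM in the control plants (SD, n = 6 and 5). The log2 fold change of Si020845m was -0.61 (SE 0.16, edgeR adjusted p = 0.00474), and it turned to 0.45 (edgeR adjusted p = 0.00541) under library size only. As a share of all counts, the large subunit took 2.74% ± 0.121 in heat-stressed plants and 2.01% ± 0.309 in control plants. Relative to the median transcript it was at -0.63, a distance that a change of scaling leaves nearly the same by construction.

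psbA offers a comparison within the plastid that needs no scaling between plants. The log2 ratio of large subunit to psbA counts was -4.20 to -4.01 in the heat-stressed plants, with a median of -4.11. In control plants 1 to 5 it was -5.06, -5.46, -4.69, -4.91 and -5.21. All heat-stressed plants lay above all control plants, and the heat-stressed plants were much more alike.

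The mean log2 ratio of large subunit to psbA was -4.11 ± 0.0592 under heat and -5.06 ± 0.292 in control plants. The difference of 0.96 on the log2 scale is a 1.94-fold higher ratio under heat (exact permutation p = 0.00216, adjusted p = 0.00722 over 10 tests of single values, 2-sided). This is the smallest p that the 462 splits of the plants can give. A ratio of this kind shows unequal change and does not by itself say which of its members changed. The log2 fold change of psbA was -1.58 (edgeR adjusted p = 0.000347) with TMM factors and -0.50 (edgeR adjusted p = 0.00197) under library size only. That of the large subunit was -0.61 and 0.45 under the same scalings.

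All 4 small subunit transcripts were lower under heat with TMM factors, by unequal amounts, though the call on Si023437m was lost in 16 of 22 alternatives. Under library size only, Si023465m and Si023437m turned to values above 0. The small subunits varied more among heat-stressed plants than the large subunit did, with coefficients of variation of 26.6% to 37.0% against 8.44%. Among control plants these were 13.0% to 27.2% against 11.6%.

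Si023465m had the most counts of the family, between 8174 and 24628 per heat-stressed plant and between 10122 and 19595 per control plant. Its lowest, median and highest levels under heat were 126, 341 and 410 CPM. Levels were 583, 512, 564, 419 and 581 CPM in control plants 1 to 5. The groups were adjacent, as the highest heat-stressed plant lay just under control plant 4. The log2 fold change of Si023465m was -0.78 (SE 0.24, edgeR adjusted p = 0.0123), and it turned to 0.26 (edgeR adjusted p = 0.294) under library size only.

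Si023466m, its neighbour by locus number, had 43.7, 108 and 155 CPM as its lowest, median and highest levels under heat. The control plants, in the same order of 1 to 5, had 223, 191, 246, 179 and 248 CPM. No heat-stressed plant reached the lowest control plant. Si023466m had a log2 fold change of -1.06 (SE 0.23, edgeR adjusted p = 0.00104), against -0.02 (edgeR adjusted p = 0.931) under library size only.

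Si023461m, the small subunit with the fewest counts among these 4, showed the largest fall. It had 57 to 195 counts per heat-stressed plant and 118 to 413 per control plant. In CPM, the lowest, median and highest levels were 0.875, 2.27 and 3.24 under heat. Control plants 1 to 5 had 11.4, 5.96, 12.0, 8.36 and 8.27 CPM, so the groups were well apart. Si023461m had a log2 fold change of -2.08 (SE 0.27, edgeR adjusted p = 1.33e-05). It is the only small subunit that was also lower under library size only, at -1.06 (edgeR adjusted p = 0.00305).

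Si023437m, which forms a close pair with Si023461m by locus number, had the smallest change of the 4 with TMM factors but not under library size only. Its lowest, median and highest levels were 50.1, 80.1 and 104 CPM under heat. They were 100, 121, 103, 83.2 and 124 CPM in control plants 1 to 5. The groups overlapped, since heat-stressed plants 3, 5 and 6 were above control plant 4.

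The log2 fold change of Si023437m was -0.43 (SE 0.18, edgeR adjusted p = 0.0464). This call was lost in 16 of 22 alternatives, where the adjusted p of edgeR or DESeq2 reached 0.271, and under library size only the value turned to 0.63 (edgeR adjusted p = 0.00210). Leaving out heat-stressed plant 2 gave -0.29 (edgeR adjusted p = 0.117).

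**Figure D2:**
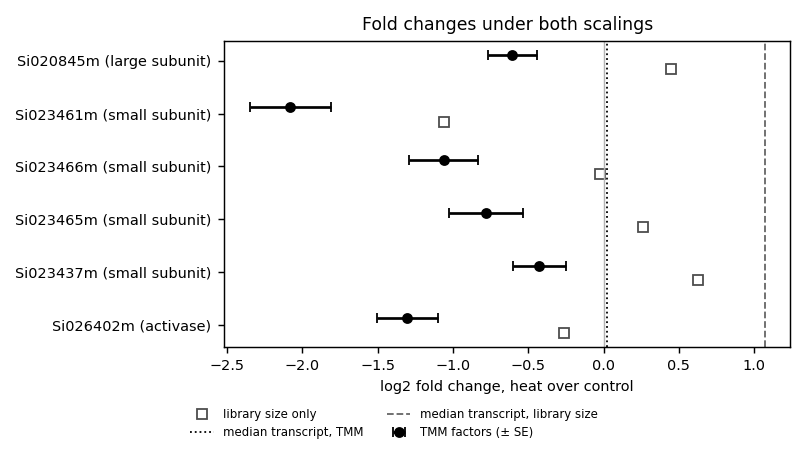
Log2 fold change, heat over control (x axis), of the large subunit, the 4 small subunits and Si026402m, with TMM factors (filled circles, ± SE) and with library size only (open squares). Vertical lines mark the median of all 18065 tested transcripts, 0.02 with TMM factors and 1.07 with library size only, and all 6 transcripts lie left of the median transcript, a position that the choice of scaling hardly moves by construction.

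Shares within the small subunit family need no scaling between plants. They are shares of the summed counts of the 4 transcripts, not corrected for length, and were compared by 2-sided exact permutation tests with adjustment over 10 tests. Si023461m and Si023466m took smaller shares under heat, Si023437m a larger share, and Si023465m remained the transcript with the largest share in every plant. The Wilson 95% interval of a single plant's share spanned at most 1.62 percentage points, and such intervals cover counting error only.

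The share of Si023461m was 0.353%, 0.421% and 0.604% of small subunit counts as the lowest, median and highest value under heat. It was 1.24%, 0.719%, 1.30%, 1.21% and 0.860% in control plants 1 to 5. The groups did not overlap, with means of 0.444% ± 0.0920 under heat and 1.07% ± 0.260 in control plants (exact permutation p = 0.00216, adjusted p = 0.00722). Control plants 2 and 5, which had the most reads that fitted several places, had the lowest control shares. Without them the difference was -0.809 percentage points (exact permutation adjusted p = 0.0397), against -0.624 with all plants. The part of such reads in this share was not tested.

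For Si023437m the lowest, median and highest shares under heat were 14.4%, 15.4% and 22.8%. Against these stood 10.9%, 14.6%, 11.1%, 12.1% and 12.9% in control plants 1 to 5. The groups overlapped narrowly, as heat-stressed plant 6, the lowest, lay just under control plant 2. The means were 16.7% ± 3.14 under heat and 12.3% ± 1.49 in control plants, a difference of 4.33 percentage points (exact permutation p = 0.00866, adjusted p = 0.0216). Heat-stressed plant 2 had the highest share, and without it the difference was 3.11 percentage points. Without control plant 3 or 4, it was 4.04 points (adjusted p = 0.0556, exact permutation) or 4.27 points (adjusted p = 0.0595).

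The share of Si023466m had a lowest, median and highest value of 18.5%, 20.9% and 24.2% under heat. In control plants 1 to 5 it was 24.3%, 23.0%, 26.6%, 26.0% and 25.8%. Heat-stressed plants 3 and 4 lay above control plant 2, and the other heat-stressed plants lay below all control plants. The means were 21.1% ± 2.43 under heat and 25.1% ± 1.46 in control plants, a difference of -4.04 percentage points (exact permutation p = 0.0195, adjusted p = 0.0278). Without control plant 3, 4 or 5 the difference was -3.67, -3.83 or -3.87 points, with an adjusted p of 0.0612, 0.0612 or 0.0544 by the exact permutation test.

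For Si023465m the shares were 57.0% to 66.5% under heat, with a median of 61.9%, and 63.5%, 61.7%, 61.0%, 60.8% and 60.4% in control plants 1 to 5. The heat-stressed plants reached beyond the control plants on both sides, with heat-stressed plant 2 lowest and plant 6 highest. The means of 61.8% ± 3.32 under heat and 61.5% ± 1.25 in control plants differed by 0.328 percentage points (exact permutation p = 0.833, adjusted p = 0.833). This difference lay within the spread between plants.

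**Figure D3:**
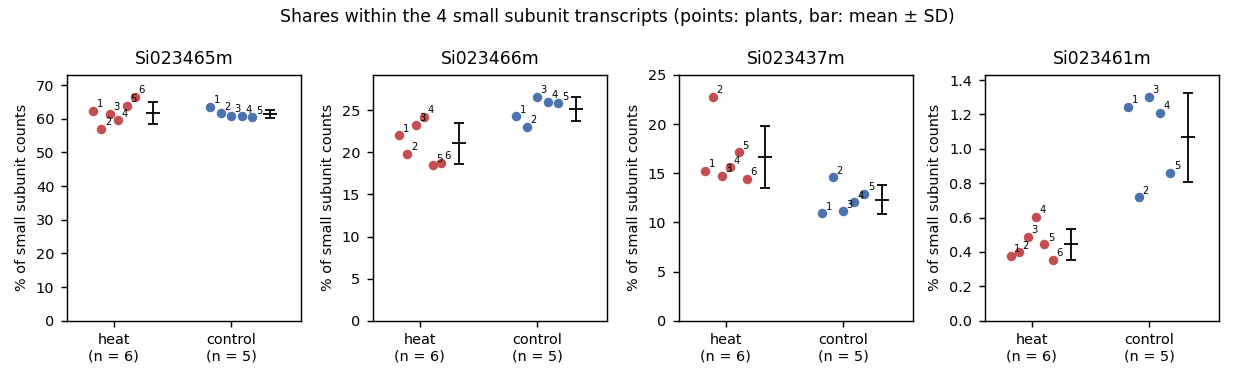
Share of each transcript in the summed counts of the 4 small subunit transcripts (y axis, percent) in 6 heat-stressed and 5 control plants, each point a plant with its number, and bars the mean ± SD. The share of Si023461m does not overlap between groups, that of Si023465m spans the control range, and heat-stressed plant 2 stands highest for Si023437m at 22.8%.

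The ratio of summed small subunit counts to large subunit counts sets the nuclear-encoded subunits against the plastid-encoded subunit. For each small subunit count, heat-stressed plants 1 to 6 had 42.4, 77.0, 31.0, 46.2, 34.5 and 34.7 large subunit counts. Control plants 1 to 5 had 38.6, 32.8, 32.8, 38.7 and 31.3. Heat-stressed plants 3, 5 and 6 were within or just below the control range, plants 1 and 4 were above it, and plant 2 was far above it.

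On the log2 scale, the small to large subunit ratio averaged -5.40 ± 0.476 under heat and -5.12 ± 0.144 in control plants. The difference of -0.28 did not pass the test (exact permutation p = 0.247, adjusted p = 0.274). It rested largely on heat-stressed plant 2, without which it was -0.11. Heat-stressed plant 2 was also the lowest of all plants for the large subunit and all 4 small subunits in CPM.

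Activase is the regulatory partner of Rubisco, and its 2 transcripts moved in opposite directions. Si026402m held nearly all activase counts in control plants and most of them under heat, and it was lower under heat with TMM factors. Si027442m, the activase with the C-terminal extension, was close to absent in control plants and was present in all heat-stressed plants.

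Si026402m had 237, 377 and 504 CPM as its lowest, median and highest levels under heat. Control plants 1 to 5 had 831, 810, 910, 875 and 1214 CPM. Every heat-stressed plant was below every control plant, and control plant 5 stood above the others. Si026402m had a log2 fold change of -1.30 (SE 0.20, edgeR adjusted p = 5.99e-05), against -0.26 (edgeR adjusted p = 0.219) under library size only. Relative to the median transcript it was at -1.33, again nearly the same under either scaling by construction.

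For Si027442m, the counts were 1225 to 2692 per heat-stressed plant, against 9, 10, 17, 7 and 16 in control plants 1 to 5. In CPM, the lowest, median and highest levels were 24.3, 34.8 and 52.4 under heat. Levels in control plants 1 to 5 were 0.339, 0.505, 0.496, 0.200 and 0.475 CPM. Every heat-stressed plant exceeded every control plant by far.

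The means of Si027442m were 35.7 ± 9.21 CPM under heat and 0.403 ± 0.132 CPM in control plants, an 88.6-fold ratio. The log2 fold change was 6.48 (SE 0.25, edgeR adjusted p = 3.44e-10), and 7.52 under library size only. When each plant was left out in turn, the value stayed between 6.28 and 6.60.

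The share of activase counts on Si027442m was 6.32%, 8.69% and 13.0% as the lowest, median and highest value under heat. In control plants 1 to 5 it was 0.0408%, 0.0624%, 0.0544%, 0.0228% and 0.0391%. The lowest heat-stressed plant had a Wilson 95% interval of 6.06% to 6.59%, and the highest control plant had an interval of 0.0339% to 0.115%, so the groups were apart beyond counting error. The mean share was 9.00% ± 2.38 under heat and 0.0439% ± 0.0152 in control plants (exact permutation p = 0.00216, adjusted p = 0.00722). Heat-stressed plant 2, the lowest for Si026402m, had the highest share of Si027442m.

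**Figure D4:**
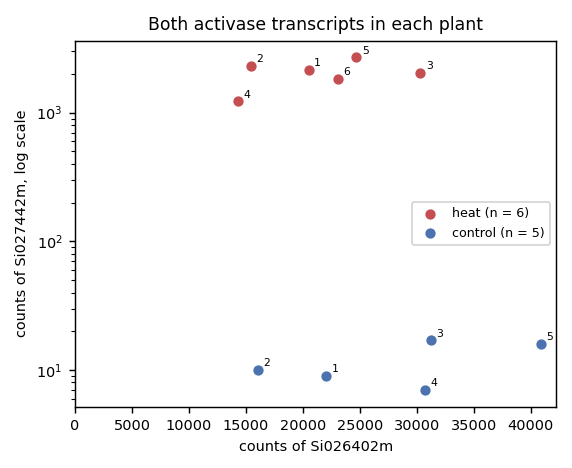
Counts of Si027442m (y axis, log scale) against counts of Si026402m (x axis) in 6 heat-stressed and 5 control plants, each point a plant with its number. Si026402m counts overlap between groups, while Si027442m has 1225 to 2692 counts under heat and 7 to 17 in control plants.

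Even with the extended form included, the ratio of activase to Rubisco counts was lower under heat. For each activase count, heat-stressed plants 1 to 6 had 60.6, 63.0, 39.6, 61.0, 40.3 and 45.1 Rubisco counts, summed over the large and small subunits. In control plants 1 to 5 there were 43.7, 34.6, 34.3, 31.3 and 25.6. The groups overlapped through control plant 1, which lay above heat-stressed plants 3 and 5.

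The mean log2 ratio of activase to Rubisco was -5.66 ± 0.316 under heat and -5.06 ± 0.279 in control plants. The difference of -0.60 corresponds to a ratio 0.660 times that of control plants (exact permutation p = 0.0173, adjusted p = 0.0278). Without control plants 2 and 5 it was -0.49 (adjusted p = 0.0680, exact permutation), and without control plant 3, 4 or 5 it was -0.61, -0.58 or -0.50 (adjusted p = 0.0556, 0.0612 or 0.0544). Nearly all Rubisco counts here were on the large subunit, so this ratio mostly sets activase against Si020845m.

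Among nuclear-encoded transcripts only, the log2 ratio of activase to small subunit counts was -0.48, 0.31, -0.31, -0.37, -0.18 and -0.34 in heat-stressed plants 1 to 6. In control plants 1 to 5 it was -0.14, -0.03, -0.02, 0.34 and 0.34. Heat-stressed plant 2 lay among the highest control plants, and the other 5 heat-stressed plants lay below all control plants. The means were -0.23 ± 0.280 under heat and 0.10 ± 0.227 in control plants, and the difference of -0.32 did not pass the test (exact permutation p = 0.0801, adjusted p = 0.100). Without heat-stressed plant 2 it was -0.43 (exact permutation adjusted p = 0.0159).

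With Si026402m alone as the activase, the same log2 ratio averaged -0.36 ± 0.251 under heat and 0.10 ± 0.227 in control plants. The difference of -0.46 passed the test (exact permutation p = 0.0152, adjusted p = 0.0278). It was -0.42 without control plants 2 and 5 (adjusted p = 0.0680, exact permutation), and -0.49, -0.40 or -0.40 without control plant 3, 4 or 5 (adjusted p = 0.0556, 0.0612 or 0.0544). The groups overlapped only through heat-stressed plant 2, at 0.11.

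**Figure D5:**
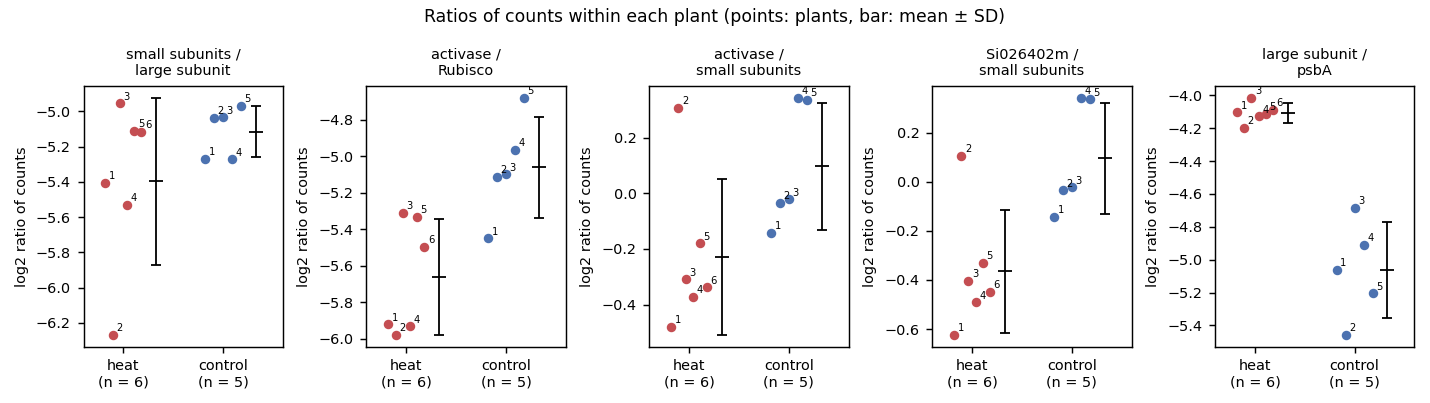
Log2 ratios of counts within each plant (y axes) for small to large subunits, activase to Rubisco, activase to small subunits, Si026402m to small subunits and large subunit to psbA, in 6 heat-stressed and 5 control plants, each point a plant with its number and bars the mean ± SD. Only the ratio of large subunit to psbA does not overlap between groups, and heat-stressed plant 2 stands apart in the ratio of small to large subunits, at -6.27.

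The Rubisco bins of the functional annotation list 7 more transcripts, of which 4 passed the filter. A further small subunit, Si023462m, had 4 to 44 counts per heat-stressed plant and 9 to 55 per control plant. Its log2 fold change was -1.39 (SE 0.46, edgeR adjusted p = 0.0169), and -0.38 (edgeR adjusted p = 0.454) under library size only. Without control plant 3 the call on Si023462m was lost (edgeR adjusted p = 0.0617). Another small subunit, Si019771m, had 1 to 8 counts under heat and 0 to 16 in control plants and was not tested.

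Of the transcripts binned as interacting with Rubisco, Si022121m was lower under heat (log2 fold change -1.35, SE 0.21, edgeR adjusted p = 5.79e-05), though at -0.28 under library size only it did not pass (edgeR adjusted p = 0.181). Si021853m, annotated as PTAC14, was higher (log2 fold change 0.60, SE 0.13, edgeR adjusted p = 0.00108), and stood at 1.64 under library size only. Si029660m, annotated as a methyltransferase that acts on the large subunit, was higher too (log2 fold change 0.40, SE 0.16, edgeR adjusted p = 0.0377), but this call was lost in 7 of 22 alternatives. Under library size only Si029660m stood at 1.45.

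Si026414m, also annotated as activase, had 1 to 9 counts in the heat-stressed plants, 38 in all, against 0 or 1 in the control plants, 1 in all. It did not pass the filter on low counts. Adding Si026414m to the activase sum left the share of Si027442m higher by 8.95 percentage points under heat. Si022612m had no count in any of the 11 plants.

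The rest of the Calvin cycle bin lists 46 transcripts, of which 26 were tested. Lower levels under heat were found for 15 and higher levels for 6, against 30.9% and 32.2% of all transcripts, and their median log2 fold change was -0.59. Under library size only, 4 were lower and 13 higher, against 7.67% and 73.2% of all transcripts, with a median of 0.46 against 1.07.

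Likeness of pattern was described by Pearson's r of the log2 CPM deviations from the group means over 11 plants, which share their libraries and scaling factors. Among the small subunits, r was lowest for Si023461m with Si023437m, at 0.55, and highest for the neighbours Si023466m and Si023465m, at 0.94. Si026402m followed the small subunits with r of 0.64 to 0.87. The large subunit followed them with r of 0.58 to 0.77. Si027442m had r of 0.38 with Si026402m, 0.27 with the large subunit and 0.00 to 0.62 with the small subunits. Any r of Si027442m rests in control plants on 7 to 17 counts per plant, and the part of counting error in it was not tested.

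Among 4095 tested transcripts with a mean of at least 10 CPM, the nearest to the large subunit was Si009236m (r = 0.94, log2 fold change -0.57). The nearest to Si026402m was Si022826m (r = 0.97, log2 fold change -1.62). For Si027442m, the nearest were Si011151m (r = 0.90, log2 fold change -0.39, edgeR adjusted p = 0.132) and Si020877m (r = 0.86, log2 fold change 1.91). These 4 identifiers were not matched to a gene name here. An r above 0.8 was reached by 99 transcripts for the large subunit, 199 for Si026402m and 15 for Si027442m.

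Of the 3 markers of C4 leaf cell types, 2 were lower under heat and none was at 0 in any plant. Phosphoenolpyruvate carboxylase (Si005789m, log2 fold change -0.88, edgeR adjusted p = 0.00508) and carbonic anhydrase (Si003882m, -0.91, edgeR adjusted p = 0.00358), both of the mesophyll, were lower under heat with TMM factors. Their summed level was 5361 to 15081 CPM under heat and 13616 to 19718 CPM in control plants, with overlap. Under library size only their log2 fold changes were 0.14 and 0.13, and neither passed the test. NADP-malic enzyme (Si000645m) of the bundle sheath, where Rubisco is found, had 30.1 to 115 CPM under heat and 31.4 to 125 CPM in control plants. Its log2 fold change was -0.76 (edgeR adjusted p = 0.0865), and 0.22 under library size only. This only bundle sheath marker had 1752 to 5932 counts per heat-stressed plant and 835 to 4390 per control plant. Of its counts, 26.2% to 48.4% were single reads, against 10.6% to 17.3% for the mesophyll markers, a difference whose source was not tested. The part of cell type composition in the Rubisco values was not tested.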

How the data were processed

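Leaf RNA was sequenced from 6 heat-stressed and 5 control plants. The authors depleted ribosomal RNA, trimmed reads (Trimmomatic), mapped them on the *S. italica* genome (TopHat2, at most 2 mismatches) and counted reads per transcript over exons (HTSeq, union mode). Whether strand was used in counting is not given in the sources used here. The deposited values are raw counts per transcript, in a file of read pairs and a file of single reads per plant, summed here for each plant. The 5 summary lines were left out. Sum columns in 10 files equalled these sums.

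The difference between heat and control was tested with edgeR 4.0.16 (quasi-likelihood, R 4.3.3) after filterByExpr and TMM, with Benjamini-Hochberg adjustment over 18065 transcripts. In place of DESeq, which the authors used, DESeq2 1.42.0 was an alternative. Within-plant shares and log2 ratios of counts were compared by 2-sided exact permutation over 462 splits (numpy 2.4.6), adjusted over 10 tests. Wilson intervals were computed with scipy 1.17.1. The smallest p is 0.00216. The fit was tested on simulated data with few changed transcripts, drawn with the fitted TMM scaling. Such data cannot test the choice of scaling. No libraries were duplicates by a chi-square comparison of counts. Named transcripts are the 7 members, the other Rubisco bin transcripts, psbA, 3 leaf markers and the transcripts most like the large subunit and both activases. Members, lists and tests were chosen with earlier results of these data known. Alternatives were other scalings, filters, families, DESeq2, read pairs or single reads only, a replicate block, each plant left out, and, chosen after seeing the data, control plants 2 and 5 left out.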

Additional observations from a re-analysis of the deposited data

Results flagged for a closer look

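Of 34 groups of plants checked for a single far value, 2 had one, and chance gives about 1 in 20. Control plant 5 had 1214 CPM of Si026402m, against 910 in the next and 810 in the lowest control plant. Heat-stressed plant 2 had a share of Si023437m of 22.8% of small subunit counts, against 17.1% in the next and 14.4% in the lowest heat-stressed plant.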

How the results depend on the processing

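The fall of Si023461m and the rise of Si027442m, their shares, and the ratio of large subunit to psbA kept direction and call under every alternative that gave a value. With library size as the only scaling, 1385 transcripts were lower and 13216 higher, 1 of the 7 was lower and 3 were higher, and the log2 fold changes turned to 0.45 for Si020845m, 0.26 for Si023465m and 0.63 for Si023437m. Single reads only gave 2792 lower and 3004 higher transcripts. With at least 10 counts in every plant, 0 of the 7 were higher, since Si027442m no longer passed. Without control plants 2 and 5, the activase to Rubisco difference was -0.49 (exact permutation adjusted p = 0.0680) and that of Si026402m to small subunits -0.42 (adjusted p = 0.0680).

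Leaving out single plants, the difference in share ranged from -0.711 to -0.565 for Si023461m, -4.66 to -3.51 for Si023466m, 3.11 to 4.90 for Si023437m and -0.611 to 1.29 for Si023465m, which turned to -0.098 and -0.611 without heat-stressed plants 5 and 6. The share of Si027442m differed by 8.14 to 9.49. Log2 differences ranged from -0.37 to -0.11 for small to large subunits, -0.70 to -0.50 for activase to Rubisco, -0.43 to -0.26 for activase to small subunits, -0.55 to -0.40 for Si026402m to small subunits and 0.86 to 1.05 for large subunit to psbA. Calls on the shares of Si023466m and Si023437m and on the ratios of activase to Rubisco and Si026402m to small subunits were lost without control plant 3 or 4, and all but that on the share of Si023437m also without control plant 5, where fewer splits remain. The activase to small subunit difference passed without heat-stressed plant 2.

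Plant numbers recur in both groups, but same-numbered plants did not deviate together (mean r 0.04 over 5 pairs, from -0.02 to 0.15). With the number as a replicate block, 5350 transcripts were lower and 5575 higher, and the 7 calls held, with -0.62 for Si020845m (edgeR adjusted p = 0.0284) and -0.49 for Si023437m (edgeR adjusted p = 0.0246). Depth limits Si027442m in control plants, at 7 to 17 counts. All other causes of these changes were not tested.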
